A study of Mus musculus with 12 samples.

Results

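The genes described here are 10 genes of angiogenic sprouting: Esm1, Apln, Aplnr, Angpt2, Cxcr4, Pdgfb, Kcne3, Unc5b, Adm and Ramp3. They were taken by symbol from a table of read counts for 24421 gene symbols, and all 10 were in it and passed the filter on low counts. The table holds ribosome-bound mRNA of subcutaneous mouse melanomas of the highly metastatic line B16F10 (n = 7 libraries) and the poorly metastatic line B16F0 (n = 5), grown for 12 days in C57BL/6 hosts. Hosts of both groups carried Rpl22fl/flHA;Cdh5(PAC)-CreERT2 and received tamoxifen. In this RiboTag design the Cdh5 promoter drives Cre in endothelial cells, which then make an HA-tagged ribosomal protein, and the tag is precipitated with the mRNA bound to it. Host age is not given in the labels. Whether each library came from its own animal is not stated in the labels, and the p-values below cover only the variation among the 12 libraries.

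A new vessel branch is led by a tip cell, an endothelial cell that extends filopodia towards a VEGF source, while stalk cells behind it divide and form the lumen. Tip cells are known in the mouse retina and in tumours by the secreted factors and surface receptors they carry, among them the proteoglycan Esm1, the peptide apelin (Apln), the TIE2 ligand angiopoietin-2 (Angpt2), PDGF-B (Pdgfb), the chemokine receptor Cxcr4 and the netrin receptor Unc5b. Adrenomedullin (Adm) is a vasoactive peptide made by many cells under low oxygen, and Ramp3 is an accessory subunit of its receptor.

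Gene counts summed to 5322510 to 20569186 per B16F10 library and 10753106 to 17381336 per B16F0 library, over sequencing lanes 1, 2 and 6. The endothelial content of a library was taken as the mean log2 CPM (read counts relative to library size) of Cdh5, the endothelial cadherin, and Pecam1, a junction molecule of endothelial cells. It averaged 7.45 ± 1.11 in B16F10 and 7.55 ± 1.14 in B16F0 (SD, n = 7 and 5), with a two-sided exact permutation p of 0.874 over 792 splits and 0.861 over the 180 splits within lanes. Over all 12 libraries it spanned a 9.01-fold range. B16F10 replicates 4 and 5 and B16F0 replicate 3 held Cdh5 at 482 to 764 CPM, against 78.6 to 206 CPM in the other 9 libraries, and these are called the endothelial-rich libraries below. All 20 genes of a pan-endothelial list had counts in every library and summed to 810 to 5284 CPM in B16F10 and 1094 to 5725 CPM in B16F0. The 10 melanocytic markers summed to 10250 to 22254 CPM in B16F10 and 12528 to 22319 CPM in B16F0, so tumour mRNA was present in all of the precipitates. B16F10 replicate 5 had 31.4% of its counts on the ribosomal RNA gene Rn45s, and B16F0 replicate 5 had 8.91%.

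Of the 10 sprouting genes 0 were called different between the tumour lines by edgeR, beside 2.77% of tested genes, with 1 (Adm) at an unadjusted p under 0.05, beside 14.8%. The endothelial content of the library was followed by 8 of the 10, beside 3.17% of tested genes, beside 18 of 20 pan-endothelial genes, and this rests on 3 libraries rich in it. The levels of 9 of the 10, all but Adm, were higher in each of the 3 endothelial-rich libraries than in any of the other 9, a pattern that 4.71% of the 13534 tested genes had. Adm varied least, by 2.95-fold over the 12 libraries, and had the lowest slope on endothelial content. Aplnr had the steepest slope of the 10, at place 2 among all tested genes. In bulk precipitates of this kind, fewer cells of a type and less RNA per cell cannot be told apart.

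**Figure D1:**
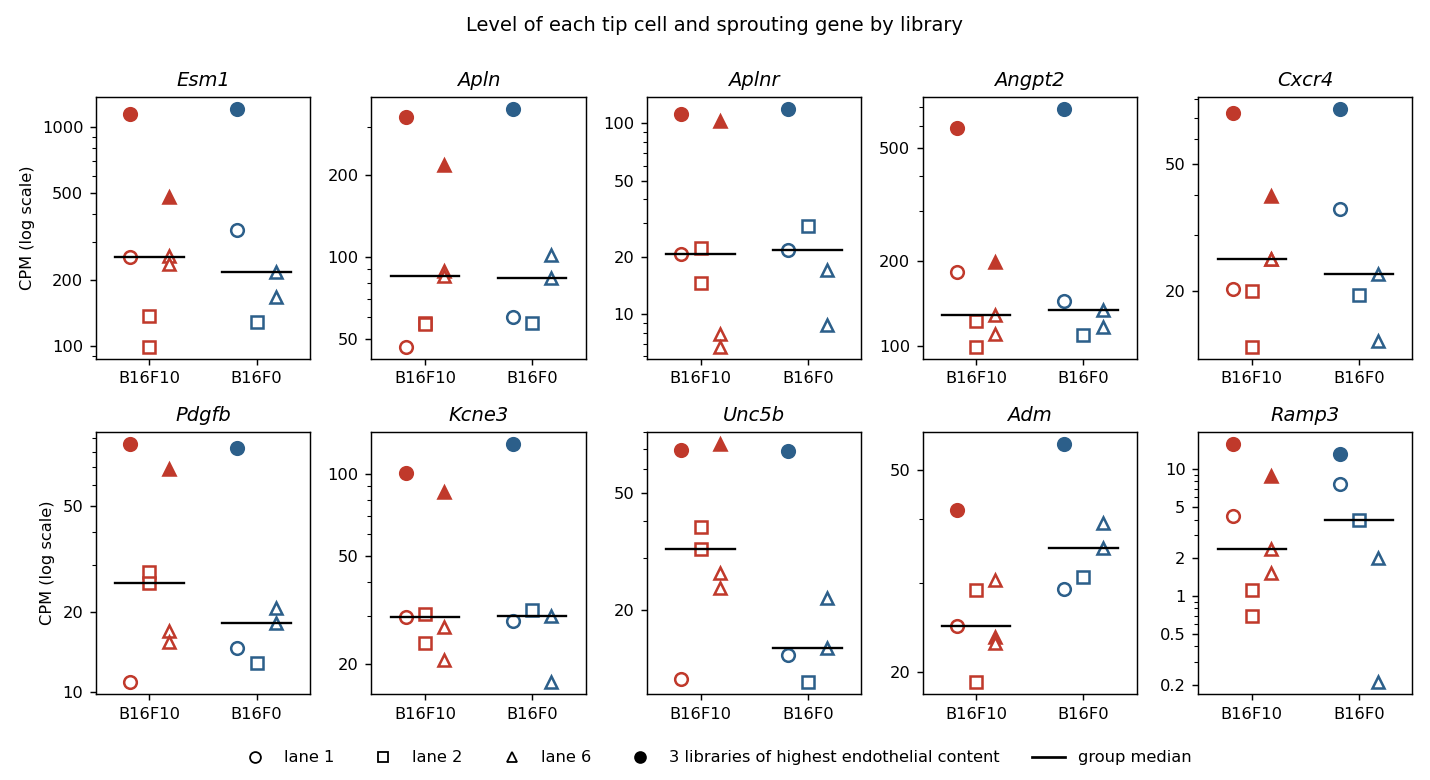
Level of each of the 10 genes by library, in CPM on a log axis, with B16F10 on the left in red and B16F0 on the right in blue; shapes mark the sequencing lane, filled symbols the 3 endothelial-rich libraries, and bars the group medians. The filled symbols lie above all open ones for 9 genes, and for Adm that of B16F10 replicate 5 does not.

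Apln, Cxcr4 and Adm are known to respond to low oxygen through hypoxia-inducible factors, and the stretches before their starts are shown with that of Esm1 because Esm1, Apln and Cxcr4 followed endothelial content and Adm did not. Each is the 250 bases before the RefSeq start on GRCm38.p6, written 5′ to 3′ on the strand of the gene. Capitals mark ACGTG or GCGTG, the core of the hypoxia response element, searched on both strands, so that CACGC is GCGTG on the opposite strand. The windows are chr13:113209409-113209658 on the plus strand for Esm1, chrX:48034854-48035103 on the minus strand for Apln, chr1:128592300-128592549 on the minus strand for Cxcr4 and chr7:110627407-110627656 on the plus strand for Adm.
Esm1: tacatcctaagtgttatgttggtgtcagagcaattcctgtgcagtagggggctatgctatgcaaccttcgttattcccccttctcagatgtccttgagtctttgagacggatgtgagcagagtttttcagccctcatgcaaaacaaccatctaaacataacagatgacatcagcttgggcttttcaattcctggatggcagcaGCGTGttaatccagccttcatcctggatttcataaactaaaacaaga
Apln: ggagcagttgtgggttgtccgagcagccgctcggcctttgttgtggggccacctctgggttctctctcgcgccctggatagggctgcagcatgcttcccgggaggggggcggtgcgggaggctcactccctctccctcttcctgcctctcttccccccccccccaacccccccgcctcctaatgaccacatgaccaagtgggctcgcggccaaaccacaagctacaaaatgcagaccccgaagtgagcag
Cxcr4: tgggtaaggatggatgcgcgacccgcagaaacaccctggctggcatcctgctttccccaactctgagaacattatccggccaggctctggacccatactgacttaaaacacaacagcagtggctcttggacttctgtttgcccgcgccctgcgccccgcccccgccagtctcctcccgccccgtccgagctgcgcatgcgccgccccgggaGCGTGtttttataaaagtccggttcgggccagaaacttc
Adm: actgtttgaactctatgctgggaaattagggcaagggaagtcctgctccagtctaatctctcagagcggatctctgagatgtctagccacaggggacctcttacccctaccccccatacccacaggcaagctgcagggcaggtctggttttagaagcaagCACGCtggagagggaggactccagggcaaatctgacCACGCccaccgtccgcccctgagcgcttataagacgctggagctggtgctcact
The core stood 47 bases before the start of Esm1 and 39 before that of Cxcr4, and at 90 and 54 bases before that of Adm. The Apln window holds none. Starts were matched for 7 of the 10 genes (not for Aplnr, Angpt2 and Pdgfb), which have 8 windows in all because Kcne3 has 2 starts. The core was in 6 of the 8, against 38.6% of all 32851 windows of this length. A match of letters is a description and shows no site in use.

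Of the secreted factors, Esm1, an endothelial proteoglycan that binds VEGF, had the highest level per kilobase of the 10 genes. It had 99.3 CPM in the lowest, 254 in the median and 1144 in the highest B16F10 library, against 129, 339, 1217, 217 and 167 CPM in B16F0 replicates 1 to 5. The ranges overlapped almost whole, and the top library of each line was an endothelial-rich one. The fold change of B16F10 over B16F0 was 0.22 ± 0.40 on the log2 scale (SE), with an edgeR adjusted p of 0.861.

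Apln is the apelin peptide, a ligand that sprouting endothelial cells secrete. Its lowest, median and highest B16F10 libraries had 46.8, 85.1 and 325 CPM, against 57.3, 60.2, 349.7, 101 and 83.8 CPM in the B16F0 libraries. The groups overlapped, and the 3 values above 200 CPM were those of the endothelial-rich libraries. Between the lines Apln had a fold change of 0.15 ± 0.48 on the log2 scale (edgeR adjusted p = 0.932).

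Angpt2, which is stored in endothelial cells and loosens the hold of mural cells through TIE2, had 99.7, 129 and 587 CPM in the lowest, median and highest B16F10 libraries. B16F0 libraries had 109.7, 145, 690.1, 134 and 117 CPM. Apart from B16F10 replicate 4 and B16F0 replicate 3, all libraries lay between 99.7 and 198 CPM, and the endothelial-rich B16F10 replicate 5 was the one at 198. On the log2 scale the fold change was 0.05 ± 0.36 (edgeR adjusted p = 0.969).

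Pdgfb encodes the ligand by which sprouts recruit pericytes. It had 10.9, 25.7 and 85.6 CPM in the lowest, median and highest B16F10 libraries and 12.8, 14.6, 82.8, 18.1 and 20.6 CPM in B16F0. The groups overlapped, and the 2 B16F10 libraries of lane 2 had 28.2 and 25.7 CPM, more than the other 7 libraries that were not endothelial-rich. A log2 fold change of 0.56 ± 0.57 was fitted (edgeR adjusted p = 0.721), which was 0.13 without B16F10 replicate 5, 0.25 without B16F10 replicate 4, 0.87 without B16F10 replicate 3 and 1.07 without B16F0 replicate 3.

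Adm stood apart from the other ligands in its low slope on endothelial content, though its highest library in each line was an endothelial-rich one. The endothelial-rich B16F10 replicate 5 had 23.4 CPM of Adm. The lowest, median and highest B16F10 libraries had 19.1, 24.7 and 41.8 CPM, against 30.8, 29.2, 56.4, 35.1 and 39.3 CPM in B16F0 replicates 1 to 5. The groups overlapped, and in each of the 3 lanes the mean log2 CPM of B16F10 was below that of B16F0. The difference was -0.33 in lane 1, -0.39 in lane 2 and -0.55 in lane 6, and the only B16F0 library of lane 2 was replicate 1. The log2 fold change was -0.44 ± 0.20, with an unadjusted p of 0.0456 and an edgeR adjusted p of 0.322. Adm therefore did not pass the test over all genes.

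Of the receptors, Aplnr, the G protein-coupled receptor of apelin, had 6.75, 20.6 and 112 CPM in the lowest, median and highest B16F10 libraries. The B16F0 libraries had 29.0, 21.7, 119, 17.0 and 8.80 CPM. Its 12 libraries spanned a 17.7-fold range, and the 3 lowest values were those of B16F10 replicates 6 and 7 and B16F0 replicate 5, all of lane 6. The log2 fold change of 0.39 ± 0.76 had a wide 95% interval, -1.26 to 2.05 (edgeR adjusted p = 0.872).

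Cxcr4 is the receptor of the chemokine Cxcl12 and is carried by tip cells and by leukocytes. It had 13.4, 25.2 and 72.2 CPM in the lowest, median and highest B16F10 libraries, against 19.5, 36.3, 74.8, 22.6 and 13.9 CPM in B16F0. The groups overlapped, and B16F0 replicate 2 at 36.3 CPM came close to the endothelial-rich B16F10 replicate 5 at 39.8 CPM. Its log2 fold change was 0.14 ± 0.33 (edgeR adjusted p = 0.903).

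Unc5b, a netrin receptor that restrains filopodia, had the largest fitted difference between the lines. B16F10 libraries had 11.7, 32.2 and 73.1 CPM at the lowest, median and highest, and B16F0 libraries had 11.4, 14.0, 69.1, 21.9 and 14.9 CPM. The groups overlapped over most of their range, but 6 of 7 B16F10 libraries lay above 4 of the 5 B16F0 libraries. The log2 fold change was 0.83 ± 0.53 (unadjusted p = 0.147, edgeR adjusted p = 0.528). The difference of mean log2 CPM was -0.12 within lane 1, 1.61 within lane 2 and 0.98 within lane 6, so its direction was not shared by the lanes. The only B16F0 library of lane 2 was replicate 1, with 11.4 CPM. With the prefix of the library names in place of the lane, the fold change was 0.56 (edgeR adjusted p = 0.475). Leaving out B16F10 replicate 5 moved the fold change to 0.52, and leaving out B16F0 replicate 3 moved it to 1.35.

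Ramp3, which makes the receptor Calcrl bind adrenomedullin, had the lowest level per kilobase. Its lowest, median and highest B16F10 libraries had 0.70, 2.35 and 15.8 CPM, against 3.95, 7.68, 13.1, 1.97 and 0.21 CPM in B16F0. Raw counts ran from 2 to 154 per library, so a single library's level carries a large counting error. The lines overlapped, with a fitted log2 difference of 0.14 ± 0.71 (edgeR adjusted p = 0.959).

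Kcne3, a subunit that modifies potassium channels, had 20.7, 29.8 and 100.2 CPM in the lowest, median and highest B16F10 libraries and 31.6, 28.8, 128, 30.0 and 17.2 CPM in B16F0. The groups overlapped, and outside the endothelial-rich libraries all values lay between 17.2 and 31.6 CPM. The log2 fold change was 0.20 ± 0.48 (edgeR adjusted p = 0.896).

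Of the 10 genes, 0 were called between B16F10 and B16F0 by edgeR's quasi-likelihood test at an adjusted p under 0.05, beside 2.77% of all tested genes. DESeq2, which gave no adjusted p for Aplnr, called 0 of the other 9, and limma-voom called 0 of the 10, while at an unadjusted p under 0.05 there was 1, Adm. All 10 genes had groups that overlapped, while 2.73% of tested genes had groups that did not. The median log2 fold change of the 10 was 0.18, against 0.02 over all tested genes. The authors' deposited table gives a log2 fold change of 0.78 and a false discovery rate of 0.315 for Unc5b and of -0.44 and 0.206 for Adm, the lowest such rate among the 10 in the authors' deposited table. Its header does not state the direction, and the signs are those of B16F10 over B16F0 in the fit made here.

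With the endothelial content added to the fit, the intervals of most genes narrowed and again 0 of the 10 were called by edgeR, beside 3.7% of tested genes. For Kcne3 the log2 fold change was then 0.15, with a 95% interval of -0.13 to 0.43, and for Apln it was 0.05, from -0.39 to 0.49. Aplnr moved to 0.05, from -0.45 to 0.54. Unc5b was at 0.68 ± 0.29 (unadjusted p = 0.0359, edgeR adjusted p = 0.245) and Adm at -0.43 ± 0.17 (unadjusted p = 0.0284, edgeR adjusted p = 0.220), and these were the 2 genes with an unadjusted p under 0.05, beside 17.3% of tested genes.

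**Figure D2:**
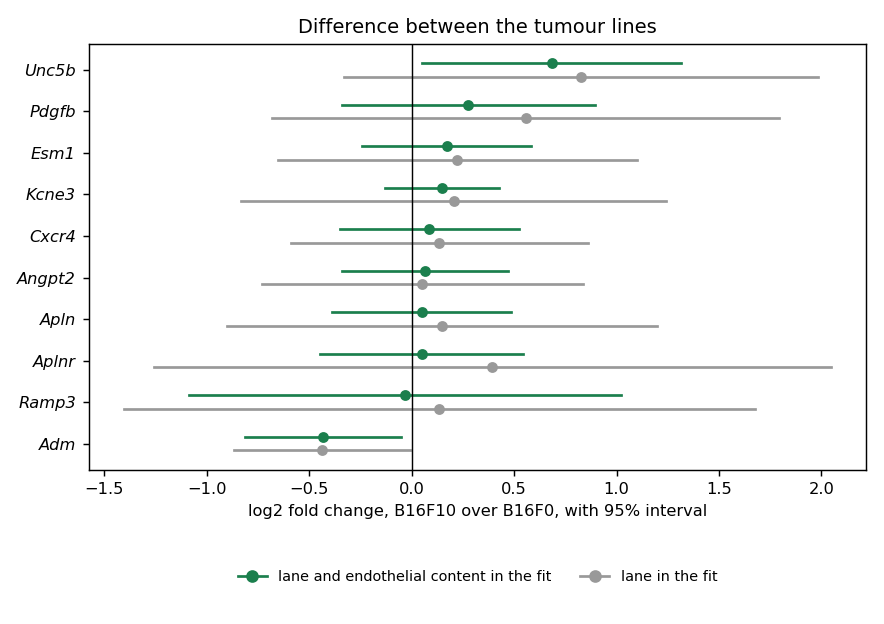
Log2 fold change of each gene, B16F10 over B16F0, as points with 95% intervals, from the fit with lane and endothelial content (green) and the fit with lane alone (grey). The Unc5b and Adm intervals lie away from 0 with content in the fit, but their adjusted p-values are 0.245 and 0.220. With lane alone the Adm interval, -0.87 to -0.01, also lies away from 0 (edgeR adjusted p = 0.322).

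The slope of a gene on endothelial content says by how many log2 units it changes per log2 unit of content, with lane and tumour line in the fit. A gene was said to follow with a slope above 0.5 and a limma adjusted p under 0.05. This held for 8 of the 10 sprouting genes, against 3.17% of all tested genes. In the pan-endothelial list 18 of 20 genes followed, Cdh5 and Pecam1 among them by construction, with a median slope of 0.89, against 0.85 for the 10. Aplnr had a slope of 1.29 ± 0.13 (limma adjusted p = 0.000111), which is a 2.45-fold change per doubling of content. Its 95% interval of 1.02 to 1.57 lies just above 1, and with single libraries left out the slope ran from 1.05 to 1.38. Among all tested genes Col13a1, a transmembrane collagen, was steeper at 1.46. The Y-linked genes Uty (1.22) and Ddx3y (1.20) came next after Aplnr, and 7 libraries held Ddx3y at 8.70 to 78.1 CPM, while 5 held no more than 0.181 CPM. Those 5 were B16F10 replicates 1, 3 and 4 and B16F0 replicates 1 and 2, so each line had libraries with and without it. Of the endothelial-rich libraries, B16F10 replicate 5 (29.2 CPM) and B16F0 replicate 3 (78.1 CPM) held Ddx3y and B16F10 replicate 4 (0.118 CPM) did not. The part of Y-linked mRNA, or of host sex, in the slopes was not tested. Pdgfb had 0.97 ± 0.16, Apln 0.90 ± 0.11, Kcne3 0.86 ± 0.07 and Unc5b 0.84 ± 0.16, with intervals that include 1, the slope of a gene in proportion to content.

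Esm1, Angpt2 and Cxcr4 followed with shallower slopes. Esm1 had 0.71 ± 0.10 (limma adjusted p = 0.00106), Angpt2 0.63 ± 0.10 (limma adjusted p = 0.00263) and Cxcr4 0.54 ± 0.11 (limma adjusted p = 0.0142). Their 95% intervals, up to 0.93, 0.85 and 0.78, lie below 1. Ramp3 had a slope of 0.93 ± 0.28 that did not pass (limma adjusted p = 0.0936). Adm had 0.18 ± 0.10 (limma adjusted p = 0.349), with an interval of -0.04 to 0.40. Without B16F10 replicate 5 the Adm slope was 0.34 (limma adjusted p = 0.0520), and without both libraries rich in Rn45s it was 0.36 (limma adjusted p = 0.0440), still under the threshold of 0.5.

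**Figure D3:**
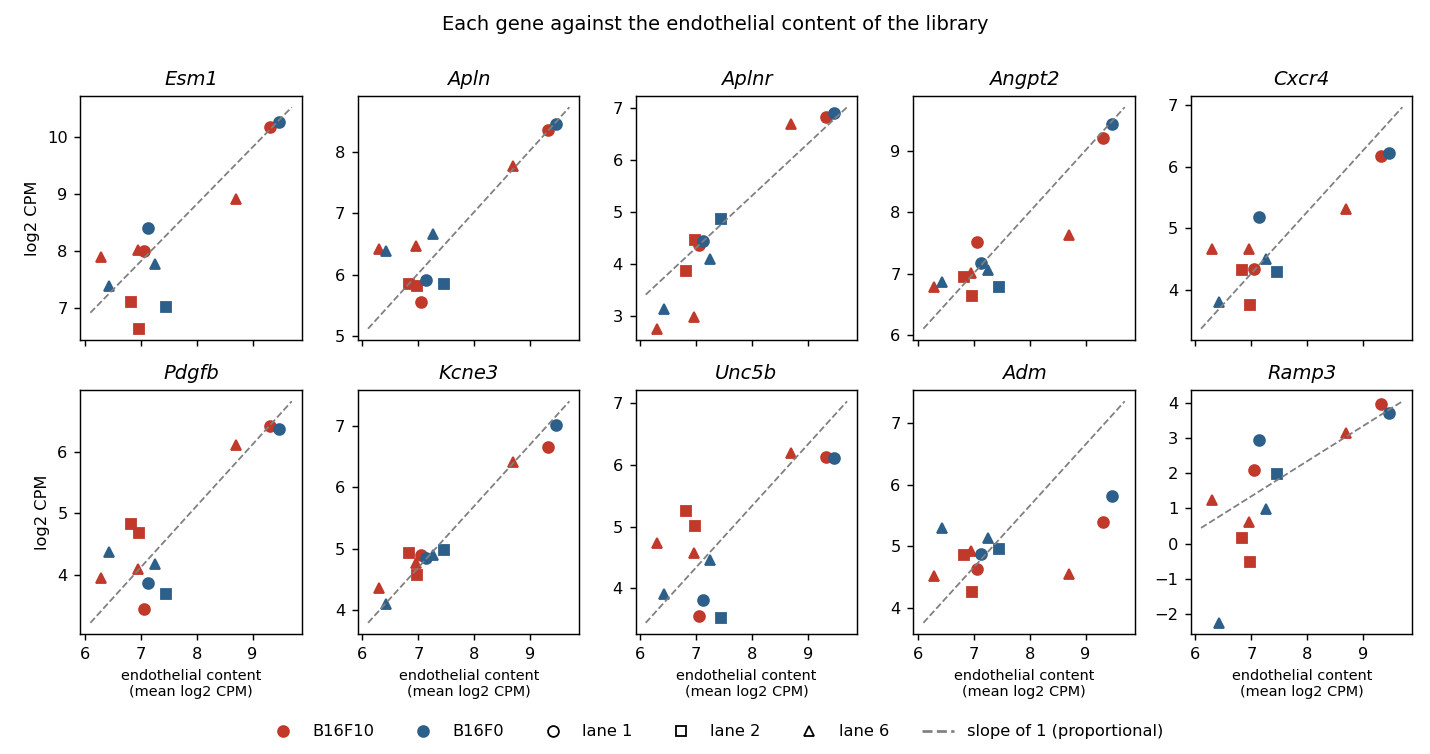
Log2 CPM of the 10 genes against the endothelial content of the library (mean log2 CPM of Cdh5 and Pecam1), with B16F10 in red, B16F0 in blue, shapes for the lane and a dashed line of slope 1, proportion to content. Between the 9 libraries of lower content and the 3 endothelial-rich ones lies a gap without libraries.

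**Figure D4:**
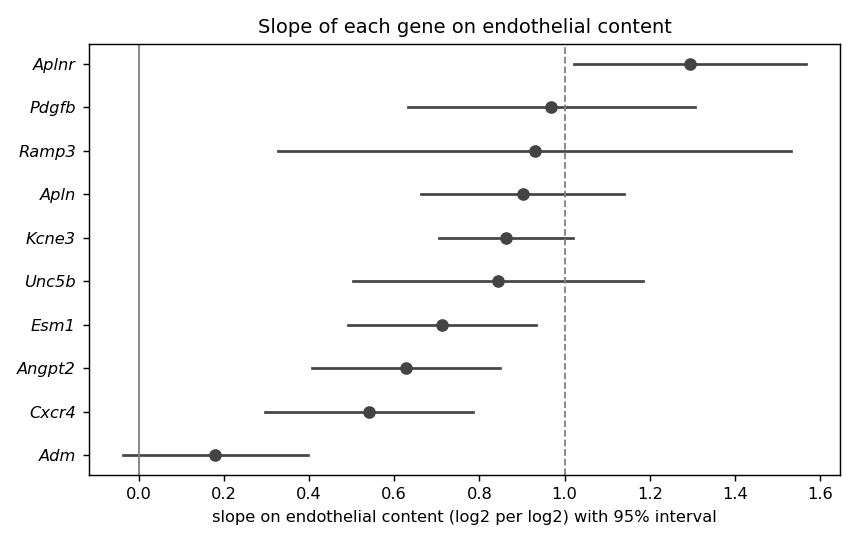
Slope of each gene on endothelial content with its 95% interval; the dashed line marks 1, proportion to content, and the solid line 0. Aplnr lies above 1, Esm1, Angpt2 and Cxcr4 below it, and Adm includes 0.

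The slopes rest on the 3 endothelial-rich libraries. Without them 0 of the 10 genes, and 0 of all tested genes, followed by the same limma test. The slopes were then 0.75 for Kcne3, 0.88 for Aplnr and 1.84 for Ramp3, while those of Esm1, Apln, Angpt2 and Cxcr4 lay between 0.13 and 0.36 and those of Pdgfb and Unc5b at -0.45 and -0.16. B16F10 replicate 4 and B16F0 replicate 3, 2 of these libraries, share a name prefix in the labels that no other library has. With the prefix in place of the lane, a fit added after seeing the data, 5 of the 10 followed (Apln, Aplnr, Pdgfb, Kcne3 and Unc5b) and 418 of all genes. Esm1 was then at 0.49 and Angpt2 at 0.33, with Cxcr4 at 0.42 (limma adjusted p = 0.176) and Adm at -0.08. With single libraries left out between 6 and 9 of the 10 followed. Cxcr4 was no longer called without B16F10 replicate 3 (slope 0.40, limma adjusted p = 0.0880), B16F10 replicate 4 (0.53, adjusted p = 0.0616) or B16F0 replicate 3 (0.51, adjusted p = 0.0945), nor Unc5b without B16F0 replicate 3 (0.69, adjusted p = 0.0610). Without B16F0 replicate 5 the Cxcr4 slope lay just under the threshold, at 0.4996.

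The slopes of the 2 lines were compared by an interaction of content and line. Aplnr had a slope of 1.41 in B16F10 and 1.11 in B16F0, a difference of 0.29 ± 0.22. Esm1 had 0.64 in B16F10 and 0.83 in B16F0, a difference of -0.19 ± 0.18, and Unc5b 0.73 and 1.02, a difference of -0.29 ± 0.28. None of the 10 passed in limma, with adjusted p-values of 1.00, and 0 had an unadjusted p under 0.05. Over all tested genes 0% passed and 132 (0.975%) had an unadjusted p under 0.05. With so few genes called anywhere, the count of 0 does not show that the slopes of the 10 are equal.

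Relative to content, the libraries differed in which sprouting genes they held. Esm1 per 100 CPM of Cdh5 and Pecam1 (their geometric mean) was 79.0, 180 and 301 CPM in the lowest, median and highest B16F10 libraries and 73.6 to 242 CPM in B16F0, with a median of 172. For Kcne3 the same ratio kept within 15.7 to 26.8 CPM in B16F10 and 18.1 to 20.6 CPM in B16F0, the tightest of the 10. Unc5b had a median ratio of 19.1 CPM in B16F10 and 10.01 CPM in B16F0, with ranges of 8.80 to 33.9 and 6.50 to 17.3 CPM that overlap. Adm ran from 5.64 to 29.1 CPM in B16F10 and from 7.96 to 45.7 CPM in B16F0, with the low ends in the endothelial-rich libraries.

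**Figure D5:**
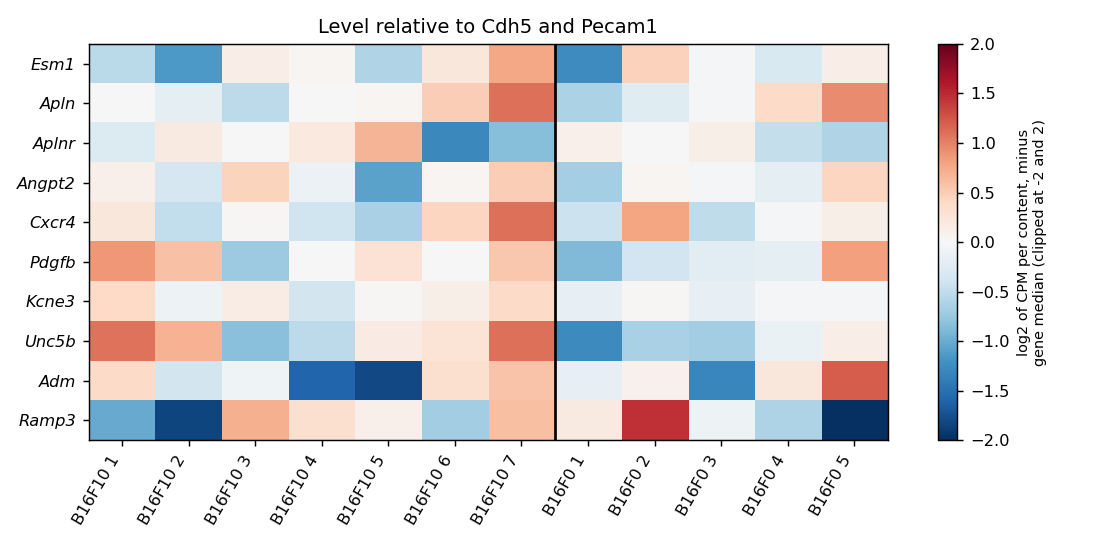
Each gene's CPM per endothelial content in each library, as log2 minus the median of the gene, in colour clipped at -2 and 2, with the B16F10 libraries left of the B16F0 libraries. Kcne3 is the most even row, and Ramp3 and Adm vary most.

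Ratios of ligand to receptor varied between libraries. Adm CPM divided by Calcrl CPM ran from 0.338 to 2.98 over the 12 libraries and Angpt2 divided by Tek from 3.86 to 15.7. Apln CPM divided by Aplnr CPM was 2.12 to 12.6 in B16F10, with a median of 2.89, and 1.98 to 9.52 in B16F0, with a median of 2.93. The values above 5 were from lane 6, in B16F10 replicates 6 and 7 and in B16F0 replicates 4 and 5. B16F10 replicate 5, also of lane 6 but endothelial-rich, had 2.12. The part of the lane in this ratio was not tested.

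Per kilobase of exon, Esm1 was the highest of the 10, at 178 ± 172 CPM per kb in B16F10 and 197 ± 217 CPM per kb in B16F0 (SD, n = 7 and 5). Cdh5 itself was at 62.2 CPM per kb in B16F10 and 65.5 in B16F0. In B16F10 the order of levels per kb went on with Angpt2 (55.3), Apln (39.7), Kcne3 (25.5), Cxcr4 (17.1), Adm (16.9), Aplnr (11.1), Pdgfb (8.63), Unc5b (6.29) and Ramp3 (3.58). In B16F0 the order was the same except that Adm (23.6) stood before Cxcr4 (18.5). No neighbours in either order differed by more than the larger of their SDs. Lengths are exon unions of GENCODE M21 on GRCm38, in which Esm1 lies at chr13:113209659-113218098 and Aplnr at chr2:85136225-85139923 on the plus strand, and Unc5b at chr10:60762593-60831581 on the minus strand. Ramp3 shares 101 exon bases with the antisense gene Gm11978 and Kcne3 shares 9 with Gm34821, and without a stated strand setting those reads cannot be told apart.

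Across the 12 libraries, Esm1 went most closely with Cxcr4 among the 10 (Pearson r = 0.964), Pdgfb with Unc5b (0.936) and Aplnr with Kcne3 (0.939). Adm correlated with the other 9 at 0.237 to 0.688. These are descriptions over libraries that share the same range of content. Among the 10461 genes of at least 5 CPM, the most alike were Ctla2a for Esm1 (0.975), Itgb3, an integrin subunit, for Apln (0.968), Ehd2 for Aplnr (0.987) and Gda for Angpt2 (0.976). With the 10 genes themselves left out, Ctla2a was also the nearest to Cxcr4 (0.961), and Arap3 to Pdgfb (0.986), Pde4b to Kcne3 (0.985), Adamts9 to Unc5b (0.980) and Cd300lg to Ramp3 (0.961). Adm had no gene closer than Gab2 (0.841).

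Markers of other cells moved differently. On the melanocytic score 9 of the 10 genes, all but Ramp3, had slopes below 0 that passed in limma, against 15.4% of tested genes, and content itself had a correlation of -0.569 with that score over the 12 libraries. Adm was among them, at -0.80 ± 0.25 (limma adjusted p = 0.0306). Of the 10 melanocytic markers 1, Oca2, was called between the lines by edgeR, beside 2.77% of tested genes. Oca2, a melanosome channel protein, was at 117 ± 29.8 CPM in B16F10 and 244 ± 47.3 CPM in B16F0 (SD, n = 7 and 5, edgeR adjusted p = 0.00379). At an unadjusted p under 0.05 there were 2, Oca2 and Pmel, beside 14.8% of tested genes. Pmel was at 811 ± 628 CPM in B16F10 and 1481 ± 783 CPM in B16F0 (unadjusted p = 0.0256, edgeR adjusted p = 0.249). On the pericyte and smooth muscle score the highest slopes were those of Pdgfb, 1.13 ± 0.47 (limma adjusted p = 0.118), and Unc5b, 1.07 ± 0.42 (limma adjusted p = 0.101). The 10 pericyte markers summed to 111 to 463 CPM in B16F10 and 97.6 to 386 CPM in B16F0. The 386 CPM was that of the endothelial-rich B16F0 replicate 3, of which 272 CPM was Abcc9. Abcc9 itself followed content (slope 0.61 ± 0.12, limma adjusted p = 0.00789). B16F10 replicates 1 and 2, lane 2 libraries in which Unc5b and Pdgfb were high for their content, had 425 and 463 CPM. B16F10 replicate 7, with the highest Unc5b per 100 CPM of content (33.9 CPM), had 111 CPM of the pericyte markers. B16F0 replicate 5, with Pdgfb at 24.0 CPM by that ratio, had 102 CPM. The part of pericyte mRNA in those levels was not tested. Cxcr4 had a slope of -0.13 ± 0.46 on the leukocyte score (limma adjusted p = 1.00), whose 10 markers summed to 63.1 to 113 CPM in B16F10 and 86.8 to 135 CPM in B16F0. The 8 fibroblast markers summed to 187 to 1998 CPM in B16F10 and 184 to 842 CPM in B16F0, and the 10 macrophage and neutrophil markers to 29.0 to 240 CPM in B16F10 and 55.7 to 257 CPM in B16F0.

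The receptors and ligands that pair with the 10 genes were counted in the same way. Of 23 partners 19 were tested and 8 followed, beside 3.17% of tested genes. Between the lines 0 were called by edgeR, beside 2.77%, with 4 (Angpt1, Pdgfrb, Pdgfra and Pdgfc) at an unadjusted p under 0.05, beside 14.8%. Tek, the receptor of Angpt2, had a slope of 1.00 ± 0.12 and Tie1, its co-receptor, 0.97 ± 0.08. Robo4, an endothelial receptor that binds Unc5b, had 0.88 ± 0.07. Cxcl12, the ligand of Cxcr4, had 0.92 ± 0.15 (limma adjusted p = 0.00304), and Kcnq1, a potassium channel that Kcne3 modifies, 0.83 ± 0.09. Calcrl and Ramp2, which with Ramp3 serve as adrenomedullin receptors, had 0.61 ± 0.11 and 0.62 ± 0.09, at 53.7 and 12.1 CPM in B16F10 and 59.8 and 14.8 CPM in B16F0. Pdgfrb, the PDGF-B receptor of pericytes, did not follow, with a slope of -0.09 ± 0.20 (limma adjusted p = 0.826). It averaged 29.1 ± 29.9 CPM in B16F10 and 8.78 ± 3.21 CPM in B16F0 (SD, n = 7 and 5), and the fitted log2 difference was 1.05 ± 0.37 (edgeR adjusted p = 0.188). B16F10 replicates 1 and 2 had 75.3 and 69.7 CPM of Pdgfrb, against 8.38 to 16.2 CPM in the other B16F10 libraries. Netrin-1 (Ntn1), a ligand of Unc5b, was at 2.88 CPM in B16F10 and 1.43 CPM in B16F0 and had a slope of 0.45 ± 0.22 (limma adjusted p = 0.292). Ntn4, another netrin, had a slope of -0.04 ± 0.27 (limma adjusted p = 0.950).

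Of 22 other tip cell genes 21 were tested and 17 followed content, beside 3.17% of tested genes. Kdr, the main VEGF receptor, had a slope of 1.08 ± 0.11, Dll4, the Notch ligand of tip cells, 0.99 ± 0.11, Cd34, a sialomucin on tip cell filopodia, 0.95 ± 0.11, and Inhbb, an activin subunit, 0.92 ± 0.16. The 4 that did not follow were Lxn, Pgf, Lama4 and Cotl1. None was called between the lines by edgeR, beside 2.77% of tested genes, and 1, Lxn, had an unadjusted p under 0.05, beside 14.8%. Lxn was at 16.3 CPM in B16F10 and 22.1 CPM in B16F0. The list's median slope was 0.75, against 0.85 for the 10 genes.

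Genes of stalk and quiescent vessel cells were described for contrast. Of 14 genes 13 were tested and 8 followed, beside 3.17% of tested genes. Notch4 was at 1.19 ± 0.15, Flt1, the decoy VEGF receptor, at 1.11 ± 0.14 and Nos3, the endothelial nitric oxide synthase, at 0.97 ± 0.12. Selp, P-selectin, was at 0.87 ± 0.19. None was called between the lines by edgeR, beside 2.77% of tested genes, with 2 at an unadjusted p under 0.05, beside 14.8%. Flt1 and Vwf of this list are also in the pan-endothelial list, as are Kdr and Cd34 of the tip cell list. Jag1, a Notch ligand that acts against Dll4 in the mouse retina, averaged 48.7 ± 5.07 CPM in B16F10 and 31.4 ± 11.2 CPM in B16F0 (SD, n = 7 and 5), a log2 fold change of 0.69 ± 0.19 with an edgeR adjusted p of 0.0806, and of 0.0448 with content in the fit.

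Of 12 hypoxia genes 0 followed content in limma, near the background of 3.17% of tested genes, and their median slope was 0.10. Car9, the carbonic anhydrase that cells make under low oxygen, was the 1 gene of the 12 called between the lines, beside 2.77% of tested genes. Its level was 129 ± 23.7 CPM in B16F10 and 64.8 ± 8.21 CPM in B16F0 (SD, n = 7 and 5). The fitted log2 difference was 1.00 ± 0.16 (edgeR adjusted p = 0.00513). At an unadjusted p under 0.05 there were 2, Car9 and Vegfa, beside 14.8% of tested genes. Vegfa averaged 302 ± 105 CPM in B16F10 and 192 ± 122 CPM in B16F0. The log2 fold change of Vegfa was 0.74 ± 0.31 (unadjusted p = 0.0360, edgeR adjusted p = 0.290). Slc2a1, the glucose transporter of the low-oxygen response, was at 137 CPM in B16F10 and 138 CPM in B16F0. Its log2 fold change was 0.02 ± 0.15, and the median fold change of the list was -0.03.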

How the data were processed

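Per the labels, ribosome-bound mRNA was precipitated from tumours and made into libraries with a ScriptSeq kit. The deposited counts are whole reads for each gene symbol, with cutadapt 1.16, STAR 2.2.1, featureCounts 1.6.0 and mm10 named per the submitters' processing notes. Which annotation and strand setting were used is not given in the sources used here. Their deposited comparison table, in other units (log2 fold changes and p-values with decimal commas), was read with decimal points. Their normalized values were left out because the deposited file has lost its decimal marks.

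Of 24421 symbols 13534 passed filterByExpr (minimum count 10) in edgeR 4.0.16 (R 4.3.3). TMM factors scaled the counts, and edgeR's quasi-likelihood F test was run with lane and tumour line in the fit, with Benjamini-Hochberg adjustment over all tested genes. Slopes were fitted with limma 3.58.1 on log2 CPM (prior count 2). Cdh5 and Pecam1 follow content by construction and are counted among the genes that follow. Depth limits Ramp3 most. The tests were tried on simulated counts. A chi-square test of counts found each pair of same-line libraries more different than sampling noise. Genes were named as the 10 members, the 4 steepest followers of each list and genes called between lines, with partners named by their pairing. Lxn, Pgf, Lama4, Cotl1, Slc2a1, Jag1, Vegfa and Pmel were named after their values were seen. Of the 3 most alike genes of each member the nearest is given. The members and lists were chosen with earlier results of these data known. Coordinates are from GENCODE M21 on the same build. Other settings tried were other covariates, scalings, filters and tools (DESeq2 1.42.0 among them), and each library left out.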

Additional observations from a re-analysis of the deposited data

Results flagged for a closer look

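In 9 of the 20 groups formed by 10 genes and 2 lines, the highest library stood farther from the next than Dixon's 95% critical value for the group. Chance flags about 1 in 20 independent groups. The 10 genes vary together over the same libraries, so these groups are not independent and the count is no test against chance. All 9 were in the endothelial-rich libraries B16F10 replicate 4 or B16F0 replicate 3, which share a name prefix in the labels. In B16F10 replicate 4 these were Esm1 at 1144 CPM and Angpt2 at 587 CPM. In B16F0 replicate 3 they were Esm1 at 1217 CPM, Apln at 349.7 CPM, Aplnr at 119.5 CPM, Angpt2 at 690.1 CPM, Pdgfb at 82.79 CPM, Kcne3 at 128.5 CPM and Unc5b at 69.15 CPM. No library was an outlier for Cxcr4, Adm or Ramp3.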

How the results depend on the processing

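The count of 0 sprouting genes called between the lines held under every setting but 1. With the melanocytic score in the fit Adm was called, at a log2 fold change of -0.67 and an edgeR adjusted p of 0.0315, so that the count was 1. Over all settings the adjusted p of Adm ran from 0.0315 to 0.613 and its fold change kept its sign. All genes called, 375 in the fit reported, were 630 with the library name prefix in place of the lane, 572 with the melanocytic score, 852 with DESeq2, 177 without lane 2, 236 without the Rn45s-rich libraries (B16F10 and B16F0 replicates 5), and 203 to 446 with single libraries left out (203 without B16F0 replicate 4, 241 without B16F0 replicate 5, 249 without B16F0 replicate 1). Called genes among the partner, other tip cell, stalk and hypoxia lists were 1 (Car9) as reported. The cell type marker lists, with Oca2, were not counted in this. The count was 2 with the prefix, the endothelial content, the pan-endothelial score or the melanocytic score in the fit, with no filter and with limma-voom. It was 3 without the endothelial-rich libraries, 4 with DESeq2, and 1 to 2 with single libraries left out. The replicate numbers share nothing in the labels, and same-numbered libraries did not deviate together (r from -0.29 to 0.32). With the replicate block 58 genes and 0 list genes were called, 2 of the 10 and 70 of all genes followed content, and Esm1, Cxcr4 and Ramp3 turned to -0.0020, -0.013 and -0.10.

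Signs of fold changes that were not called turned under several settings, and the cause was not tested. Without the lane they were -0.15 (Esm1), -0.061 (Apln), -0.23 (Angpt2), -0.12 (Cxcr4), -0.060 (Kcne3) and -0.14 (Ramp3). With endothelial content Ramp3 was -0.032. With the pan-endothelial score they were -0.054 (Apln), -0.12 (Aplnr), -0.0081 (Angpt2) and -0.13 (Ramp3). With the melanocytic score they were -0.48 (Esm1), -0.78 (Apln), -0.70 (Aplnr), -0.51 (Angpt2), -0.39 (Cxcr4), -0.57 (Pdgfb), -0.50 (Kcne3), -0.12 (Unc5b) and -0.45 (Ramp3). With no filter Angpt2 was -0.029, and with limma-voom Aplnr was -0.094 and Ramp3 -0.18. Without the Rn45s-rich libraries they were -0.070 (Esm1), -0.15 (Apln), -0.59 (Aplnr), -0.11 (Angpt2), -0.16 (Cxcr4), -0.29 (Kcne3) and -0.62 (Ramp3). Without the endothelial-rich libraries, a setting chosen after seeing the data, they were -0.11 (Apln), -0.58 (Aplnr), -0.039 (Cxcr4), -0.036 (Kcne3) and -0.54 (Ramp3), and the slopes of Pdgfb and Unc5b were -0.45 and -0.16. With single libraries left out, fold changes ran from -0.034 to 0.56 for Esm1, -0.22 to 0.59 for Apln, -0.49 to 0.90 for Aplnr, -0.18 to 0.42 for Angpt2, -0.067 to 0.37 for Cxcr4, 0.13 to 1.07 for Pdgfb, 0.52 to 1.35 for Unc5b, -0.56 to -0.33 for Adm, -0.15 to 0.63 for Kcne3 and -0.33 to 0.83 for Ramp3. The difference in endothelial content ran from -0.41 to 0.36.

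Of all genes, 429 followed content as reported, 646 without lane 2, 418 with the name prefix in place of the lane, 0 without the endothelial-rich libraries, and 270 to 758 with single libraries left out (270 without B16F10 replicate 3, 275 without B16F0 replicate 3, 758 without B16F0 replicate 1). With that prefix 5 of the 10 followed and the Adm slope was -0.076. Ramp3 was called with limma-voom (0.76, limma adjusted p = 0.0388) and without the lane, lane 2 or B16F0 replicate 1. The number of libraries limits what the fold changes can show, since the 95% interval of Aplnr reaches 2.05.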

Other observations

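After lane, tumour line and endothelial content were taken out, some of the 10 genes still went together over the 12 libraries. Esm1 and Cxcr4 had a correlation of 0.868, Pdgfb and Unc5b 0.869, Angpt2 and Adm 0.871 and Apln and Angpt2 0.813. Aplnr and Adm had -0.776. These are descriptions over libraries that share depth and lanes, with few degrees of freedom left, and no test was made of them.

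In the endothelial-rich B16F10 replicate 5, Angpt2 was at 47.8 CPM and Cxcr4 at 9.60 CPM per 100 CPM of endothelial content, the lowest of all B16F10 libraries, while Aplnr was at 24.7 CPM, the highest. Rn45s took 31.4% of its counts, and its part in these levels was not tested.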
